A study of Arabidopsis thaliana with 18 samples.

Results

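The comparison described here asked where root apices of 2 Arabidopsis thaliana ecotypes, Landsberg erecta (Ler) and Columbia (Col), changed their transcripts differently in the 2 h after removal of phosphate. It was a difference of differences, the change of Ler between 0 h and 2 h minus the change of Col between 0 h and 2 h, and drew on 12 of the 18 poly(A) RNA-seq libraries of the series. The 4 groups of 3 libraries were Ler at 2 h, Ler at 0 h, Col at 2 h and Col at 0 h. All seedlings grew for 7 days on nylon mesh on tenfold-diluted Murashige and Skoog medium holding 500 µM phosphate. Transfer followed, to the same kind of medium without phosphate for the 2 h groups and to new medium with phosphate for the 0 h groups. Root apices of about 0.5 cm were frozen. The treatment field of the 0 h libraries reads no treatment although the protocols describe their move, and the labels call both ecotypes wild type. As background, Landsberg erecta carries a mutant allele of the receptor kinase gene ERECTA, and it differs from Col at many other loci. The 2 h groups used here hold no libraries moved to medium with phosphate, so effects of the move, of phosphate removal and of the time of day cannot be told apart. The contrast removes only what both ecotypes did alike.

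Phosphate shortage is known to act on Arabidopsis roots in a local and a systemic way. At the root tip, malate exported by ALMT1, iron and the oxidase LPR1 restrain elongation within hours. In the whole plant the factor PHR1 switches on phosphate transporters, phosphatases, ribonucleases and lipid-remodelling enzymes. Root hairs, tubular outgrowths of epidermal cells built from xyloglucan, pectin and extensin, grow longer and denser when phosphate is short, and the endodermis and xylem behind the tip deposit lignin.

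Total counts were 23451068 to 27820009 per library, and 20599 of the 32852 features listed for every library passed a filter on low counts. Levels are CPM, read counts divided by the scaled size of the library in megareads, listed in the order of replicates 1, 2 and 3, and p-values are adjusted over all tested features in 1 model that holds the replicate number as a blocking term. The series' design text calls the replicates biological. Replicate 2 of Col at 0 h stood farthest from its own group. Over the 12678 features averaging at least 10 CPM, its median absolute log2 distance from the mean of the other 2 libraries of its group was 0.268, against 0.121 to 0.203 in the other 11 libraries.

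The response differed between the ecotypes past the threshold, an adjusted p under 0.05 by edgeR's quasi-likelihood test, for 79 features, 0.384% of those tested. For 71 features the response was higher in Ler than in Col (0.345%), by log2 differences of 0.69 to 4.99 with a median of 1.20. For 8 features it was lower (0.0388%), with log2 differences of -0.67 to -1.88. An unadjusted p under 0.05 was reached by 3143 features in the positive direction (15.3%) and 3012 in the negative direction (14.6%), together 29.9%, and the median difference of all features was 0.02. The 71 positive features were mostly those with a rise in Ler and no call in Col (29), a fall in Col and no call in Ler (25), or a rise in Ler with a fall in Col (13). At 0 h, 48 of the 71 were lower in Ler than in Col past the threshold (15.5% of all features were), and 31 of these had no call between the ecotypes at 2 h. The 0 h libraries are part of the difference that selected the 71. Their selection therefore favours a lower level in Ler at 0 h. All 79 had the same sign at each of the 3 replicate numbers, as did 54.4% of all features. They were selected by a test on these libraries with this number as a block, which favours such agreement. It is no separate evidence.

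These calls rested on the design and on single libraries. Without the replicate block no feature passed by edgeR (3621 had an unadjusted p under 0.05), with a block within each ecotype 1679 passed (8.15%, of which 4.06% positive and 4.09% negative), and DESeq2 with the block called 2931 (14.2%, of which 8.01% positive and 6.22% negative), among them 75 of the 79. Without replicate 2 of Col at 0 h, 3819 features passed, 1827 positive (8.78%) and 1992 negative (9.57%), and without replicate 3 of Ler at 2 h none passed (4009 had an unadjusted p under 0.05). No other left-out library gave as many calls, and without replicate 1 or 3 of Col at 0 h none passed either. List counts given below without replicate 2 of Col at 0 h thus come from the left-out library with the most calls. The adjusted p of the 79 lay between 0.0374 and 0.0482, just inside the threshold, and many members named below lay just outside it. The responses of each ecotype had more calls, with 1825 features (8.86%) past the threshold in Ler and 4550 (22.1%) in Col.

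**Figure D1:**
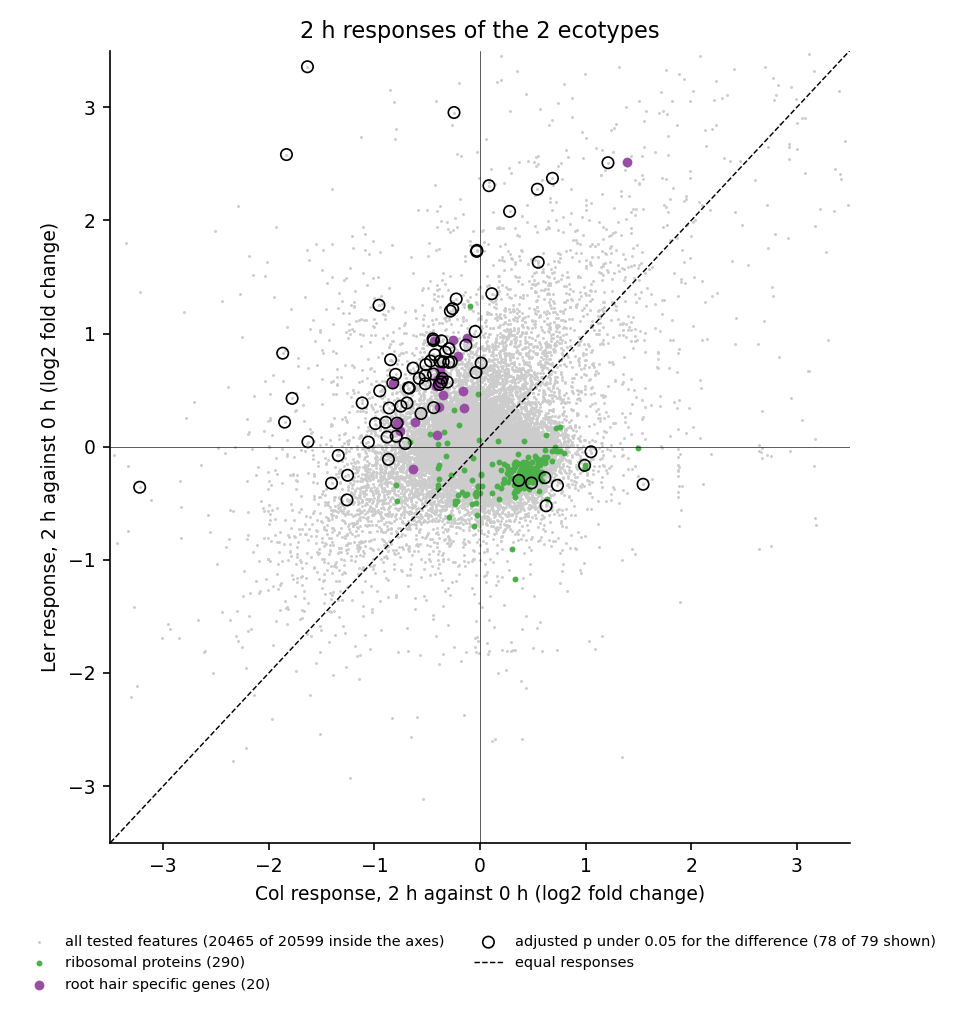
Log2 fold change at 2 h against 0 h in Ler (vertical axis) and in Col (horizontal axis) for each tested feature (grey), with ribosomal protein genes in green, root hair specific genes in purple, features past the threshold of the difference circled, and equal responses on the dashed line. The 20 root hair specific genes lie above the dashed line, and 271 of the 290 ribosomal protein genes lie below it.

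Short lists of root hair genes and extensins had median differences of 0.94 to 1.00, above those of every other list examined. All lists were chosen with earlier results of these data known. The definitions of the root hair specific genes and extensins were widened or corrected after values were seen. This rank is therefore a description of the lists as drawn, and a wider list of 29 root hair genes had a median of 0.25. The root hair specific (RHS) genes are a named set found in Arabidopsis partly by a shared promoter motif, the root hair element. Motif and sequence are shown for 3 genes described below, the RHS genes G3Pp2 (RHS15) and RHS18 and the root hair marker LRX1, each as the 250 bases before the gene start in TAIR10.1 (RefSeq), 5′ to 3′ on the gene's strand, with the match in capitals.
G3Pp2: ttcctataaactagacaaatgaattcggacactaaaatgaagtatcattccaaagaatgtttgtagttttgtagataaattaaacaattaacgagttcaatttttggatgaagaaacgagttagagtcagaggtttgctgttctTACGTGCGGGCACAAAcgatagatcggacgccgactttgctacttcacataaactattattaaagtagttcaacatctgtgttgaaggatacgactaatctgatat
RHS18: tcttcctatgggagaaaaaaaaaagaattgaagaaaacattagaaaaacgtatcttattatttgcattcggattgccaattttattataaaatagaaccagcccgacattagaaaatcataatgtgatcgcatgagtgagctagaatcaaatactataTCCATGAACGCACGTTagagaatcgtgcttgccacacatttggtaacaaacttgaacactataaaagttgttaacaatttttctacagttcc
LRX1: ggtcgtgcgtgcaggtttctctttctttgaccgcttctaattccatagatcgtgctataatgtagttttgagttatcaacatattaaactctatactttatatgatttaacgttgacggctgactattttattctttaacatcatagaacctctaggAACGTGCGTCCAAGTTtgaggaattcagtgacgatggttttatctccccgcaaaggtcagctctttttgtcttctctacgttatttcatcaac
The windows are chr4:12920492-12920741 for G3Pp2, chr5:7426060-7426309 for RHS18 and chr1:4069742-4069991 for LRX1, all on the forward strand. The matches span bases 106 to 91, 92 to 77 and 93 to 78 before the start. The element, searched on both strands, was in 8 of the 20 RHS promoters (40.0%), 5 of the 8 promoters of the root hair marker list (62.5%) and 3 of the 71 positive features (4.23%), against 165 of all 20579 promoters (0.802%). Since the RHS set was found in part through this element, its share there is a description of the set.

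The summed level of the 20 RHS genes was 1614, 1304 and 1861 CPM in Ler at 2 h and 999.6, 899.8 and 845 CPM in Ler at 0 h, against 1387, 1449 and 1367 CPM in Col at 2 h and 1945, 1385 and 1638 CPM in Col at 0 h. The 3 libraries of Ler at 0 h were lowest and did not overlap those of Ler at 2 h or Col at 0 h, whereas the 2 h libraries of both ecotypes overlapped. All 20 had a difference above 0 (51.8% of all features did), with a median of 0.97, 3 of the 20 passed the threshold, and 19 had an unadjusted p under 0.05. Of all features, 6.18% rose and 2.68% fell in Ler, and 10.4% rose and 11.6% fell in Col. Of the 20 genes, 10 rose in Ler and none fell, while 1 rose and 7 fell in Col. At 0 h, 19 of the 20 were lower in Ler past the threshold (15.5% of all features). Without replicate 2 of Col at 0 h, 14 of the 20 passed, next to 18.3% of all features in that setting. The median of the 20 was 0.79 to 1.11 whichever library was left out.

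RHS14, a pectate lyase family member (chr4:11700555-11702785, reverse strand), had 39.2, 30.1 and 42.4 CPM in Ler at 2 h and 23.0, 16.3 and 19.3 CPM in Ler at 0 h, against 46.4, 40.5 and 42.0 CPM in Col at 2 h and 74.9, 44.5 and 59.1 CPM in Col at 0 h. Ler at 0 h lay below every other group and the groups at 2 h overlapped. It rose in Ler (log2 change 0.94 ± 0.16 SE, adjusted p = 0.0022) with -0.44 in Col (adjusted p = 0.0538), a difference of 1.38 ± 0.22 (adjusted p = 0.0465). G3Pp2, a glycerol-3-phosphate permease family member also named RHS15, had 42.9, 22.2 and 43.2 CPM in Ler at 2 h and 25.8, 24.0 and 20.3 CPM in Ler at 0 h, against 46.9, 26.9 and 35.3 CPM in Col at 2 h and 88.5, 44.5 and 62.4 CPM in Col at 0 h. The groups of each ecotype overlapped between times. G3Pp2 fell in Col (log2 -0.83, adjusted p = 0.00506), next to 0.56 in Ler (adjusted p = 0.0575), and the difference was 1.39 ± 0.24. RHS16, a receptor-like kinase, had a difference of 0.99 (adjusted p = 0.0465) and likewise fell in Col (-0.79, adjusted p = 0.00222) with 0.21 in Ler. RHS18, a peroxidase, was just outside the threshold with a difference of 1.01 (adjusted p = 0.053) and rose in Ler (0.80, adjusted p = 0.00451).

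COW1, a phosphatidylinositol transfer protein required for tip growth of root hairs (chr4:16515102-16518746, forward strand), was the member of the 8-gene root hair marker list past the threshold. It had 103, 78.7 and 135 CPM in Ler at 2 h and 78.3, 76.9 and 81.8 CPM in Ler at 0 h, against 83.1, 68.8 and 82.6 CPM in Col at 2 h and 152, 94.8 and 137 CPM in Col at 0 h. Each library of Col at 2 h was below each of Col at 0 h, and the groups of Ler overlapped. Its difference was 1.08 ± 0.17 (adjusted p = 0.0465), with a fall in Col (-0.69, adjusted p = 0.00237) and 0.39 in Ler (adjusted p = 0.0665). All 8 markers had an unadjusted p under 0.05 in the positive direction (15.3% of all features did, and 14.6% in the negative direction), and 7 rose in Ler (6.18%). Those were the hair expansins EXPA7 and EXPA18, the wall proteins LRX1, PRP1 and PRP3, the NADPH oxidase RHD2 and the master regulator RSL4. The differences of EXPA18 (0.98, adjusted p = 0.0581), EXPA7 (0.97, 0.0602), LRX1 (1.02, 0.0573) and RSL4 (0.62, 0.0746) missed the threshold. PRP1 is in both lists. Over the wider 29-gene list of root hair genes, which also holds early patterning regulators, 2 passed, both positive, 11 positive and 4 negative members had an unadjusted p under 0.05, and the median was 0.25.

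Extensins, hydroxyproline-rich glycoproteins that are crosslinked into the wall of growing hairs, also had positive differences. Of 17 tested, 3 passed, all positive, 17 had a difference above 0, and the median was 0.94. EXT6 had 402, 249 and 460.4 CPM in Ler at 2 h and 228, 178 and 166 CPM in Ler at 0 h, against 352, 284 and 368 CPM in Col at 2 h and 459.99, 384 and 444 CPM in Col at 0 h. The libraries of Ler at 2 h lay above those of Ler at 0 h, and in Col 2 h lay below 0 h. EXT6 rose in Ler (0.94, adjusted p = 0.00421), had -0.36 in Col (adjusted p = 0.142) and differed by 1.298 ± 0.24 (adjusted p = 0.0465). EXT12 differed by 1.24 and EXT10 by 1.23 (adjusted p = 0.0465 each). Extensins have repetitive sequences, so reads can be shared among members, although none of the 79 features has a near-identical locus (at least 95% identity over at least 50% of its length). EXT10 overlaps another annotated gene on the opposite strand. Without replicate 2 of Col at 0 h, 7 extensins and 7 of the 8 root hair markers passed, all positive. In that setting, the one with the most calls, 8.78% of all features passed as positive.

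**Figure D2:**
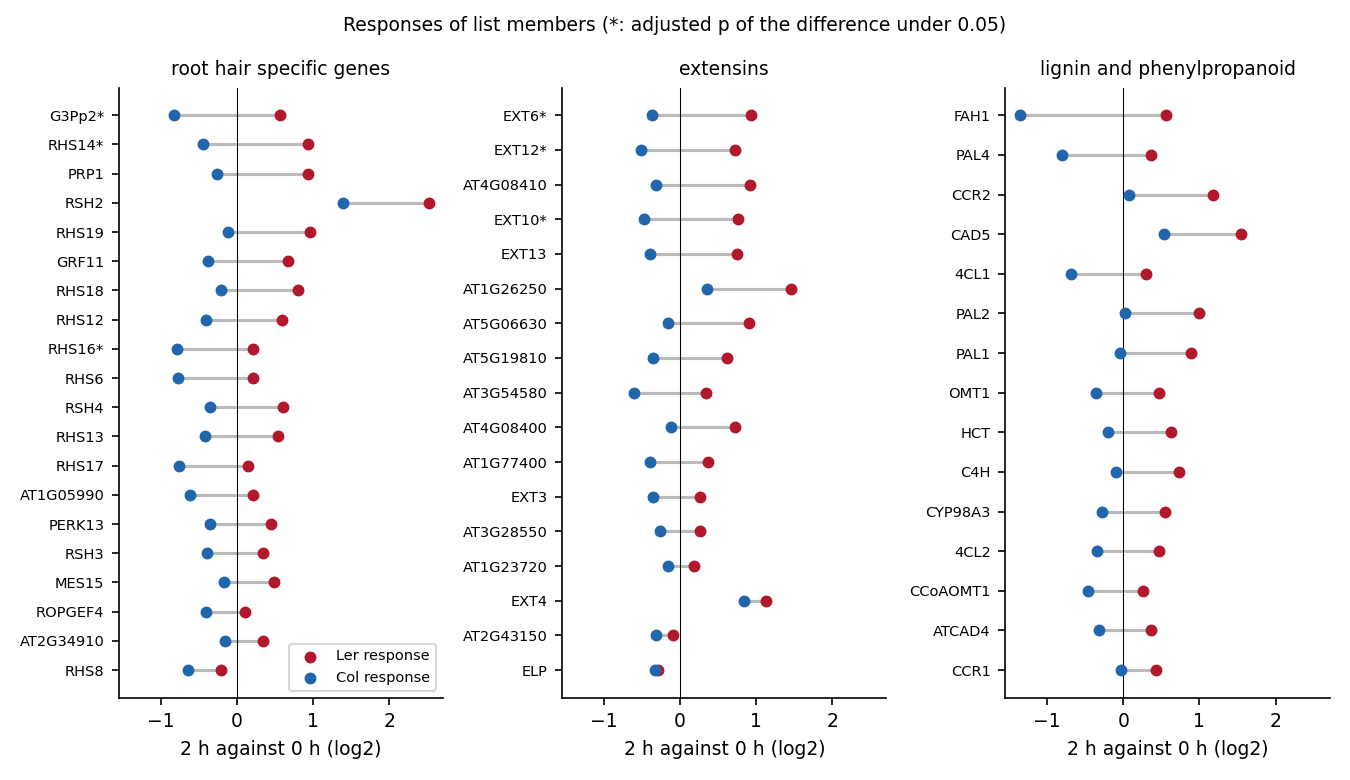
Log2 fold change at 2 h against 0 h in Ler (red) and in Col (blue) for each tested member of 3 lists, ordered by the difference. In every row the red point lies right of the blue one, and asterisks mark the 3 root hair specific genes and 3 extensins past the threshold of the difference.

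Other wall enzymes passed the threshold singly. XTH26 (chr4:14244290-14246037, forward strand), a xyloglucan endotransglucosylase/hydrolase known to act in root hairs, had 56.2, 19.8 and 36.9 CPM in Ler at 2 h and 17.4, 9.40 and 7.00 CPM in Ler at 0 h, against 68.6, 54.5 and 56.6 CPM in Col at 2 h and 121, 44.0 and 44.8 CPM in Col at 0 h. Ler was below Col at 0 h in every library, and Ler at 2 h lay above Ler at 0 h. Libraries did not overlap between the ecotypes at 0 h for 32.3% and at 2 h for 33.5% of all features, and between times in Ler for 22.2%. XTH26 rose in Ler (1.74 ± 0.24, adjusted p = 0.000623) with -0.03 in Col (adjusted p = 0.944), a difference of 1.77 ± 0.33 (adjusted p = 0.0465). XTH14, a second member active in hairs, differed by 1.19 (adjusted p = 0.0477) and fell in Col (-0.67, adjusted p = 0.0132). Across the 28 tested XTH genes the median was 0.19 and 2 passed. At an unadjusted p under 0.05, 8 were positive and none negative, next to 15.3% and 14.6% of all features. AT5G04960, a pectin methylesterase with its inhibitor domain, differed by 1.15 (adjusted p = 0.0465), rising in Ler (0.63) and falling in Col (-0.52). The 48 pectin methylesterase family genes had a median of 0.19 with 1 past the threshold. Expansins had a median of -0.09 over 22 members, with none past the threshold by edgeR, 2 positive and 3 negative at an unadjusted p under 0.05 and 2 called by DESeq2, both positive.

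Markers of other root cell types also differed between the libraries. The summed level of 10 endodermis markers, which include the Casparian strip proteins CASP1 to CASP5, was 710.2, 601 and 1045 CPM in Ler at 2 h and 835, 703 and 744 CPM in Ler at 0 h, against 943, 849.5 and 859 CPM in Col at 2 h and 1858, 1257 and 1684 CPM in Col at 0 h. Col at 0 h was above every other group, and 7 of the 10 fell in Col against 1 in Ler (11.6% and 2.68% of all features). The 8 markers of the root meristem summed to 144, 153 and 137 CPM in Ler at 2 h and 133, 139 and 142 CPM in Ler at 0 h, against 152, 186 and 156 CPM in Col at 2 h and 114, 147 and 129 CPM in Col at 0 h, and Col at 2 h lay above both 0 h groups while overlapping Ler at 2 h. SHR and SCR are in both lists, so the 2 sums are not separate. They averaged 34.2 and 65.6 CPM in Ler at 2 h, most of the meristem sum. Their differences of -0.14 and -0.07 were the only ones below 0 among the endodermis markers. The 4 root cap markers summed to 56.1, 64.0 and 40.5 CPM in Ler at 2 h and 72.2, 65.6 and 77.2 CPM in Ler at 0 h, against 47.6, 55.0 and 52.9 CPM in Col at 2 h and 36.6, 51.3 and 39.9 CPM in Col at 0 h, and the 0 h libraries of Ler lay above those of Col. The 7 tested markers of green tissue summed to 149.6, 73.8 and 155 CPM in Ler at 2 h and 299, 167 and 149.6 CPM in Ler at 0 h, against 94.2, 45.9 and 55.0 CPM in Col at 2 h and 223, 110.1 and 163 CPM in Col at 0 h. Col at 2 h lay below Col at 0 h, and the groups of Ler overlapped. Of the 7, 5 fell in Col and 2 in Ler (11.6% and 2.68% of all features), 6 had a difference above 0 (51.8%) and the median difference was 0.60. None passed by edgeR, 2 were positive at an unadjusted p under 0.05 (15.3% of all features) and DESeq2 called 1 (8.01% as positive). The small subunit genes RBCS1B, RBCS2B and RBCS3B had 25 counts or fewer each over the 12 libraries. In bulk root apices, fewer cells of a type and less RNA per cell cannot be told apart, and the part of cell type composition, or of how much of the root was cut, in any difference given here was not tested.

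**Figure D3:**
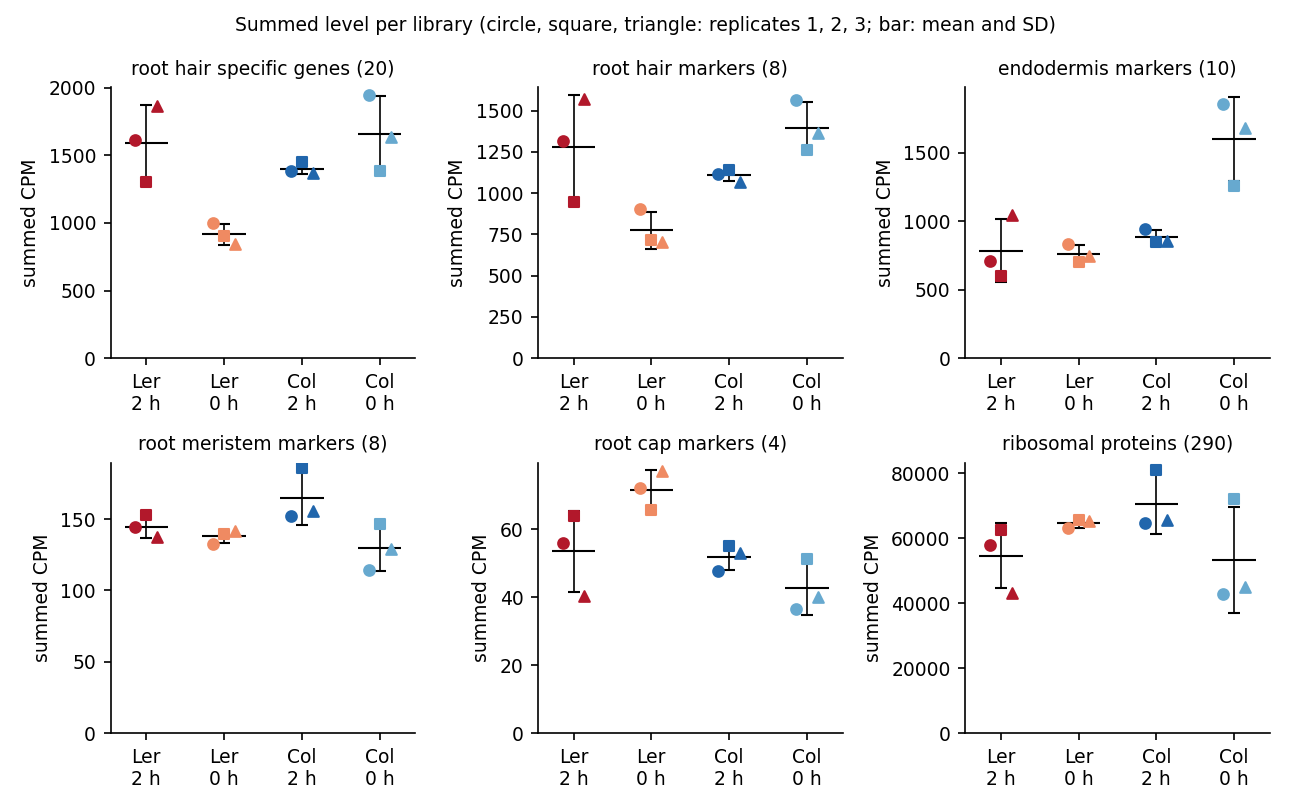
Summed CPM of 6 gene lists in each library, for Ler at 2 h, Ler at 0 h, Col at 2 h and Col at 0 h (from left), with replicates 1, 2 and 3 as circle, square and triangle and bars for mean and SD (n = 3). The endodermis sum is highest in Col at 0 h, the root hair specific sum is lowest in Ler at 0 h, and replicate 2 of Col at 0 h (square) has a ribosomal sum of 72005 CPM, above replicates 1 and 3 of its group.

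In the endodermis list, 8 of 10 members had an unadjusted p under 0.05 in the positive direction and the median difference was 0.85. Of all features, 15.3% were positive at that p and DESeq2 called 8.01% as positive. None passed by edgeR, and DESeq2 called 5, all positive. CASP1, which forms the membrane scaffold of the Casparian strip, had 161, 115 and 231 CPM in Ler at 2 h and 198, 140.3 and 161 CPM in Ler at 0 h, against 229, 191 and 189.8 CPM in Col at 2 h and 505, 305 and 413 CPM in Col at 0 h. Col at 0 h lay above all other groups. CASP1 fell in Col (-0.97 ± 0.20, adjusted p = 0.00499) with 0.02 in Ler (adjusted p = 0.981), a difference of 0.98 (adjusted p = 0.0616). ESB1, a dirigent protein of the strip, fell in Col (-0.97, adjusted p = 0.0057) with 0.10 in Ler and a difference of 1.07 (adjusted p = 0.0582). ESB1 overlaps AT2G28671 on the opposite strand, so its counts are uncertain. The sequence of that locus matches 84.6% of the length of ESB1, but this includes the bases they share and does not show a separate copy. CASP1, EXPA7, EXPA18, IRX3, PAP10, TGA4 and SYP111 also overlap genes on the opposite strand. The 6 xylem markers had a median of 0.59 and none passed by edgeR, with 4 at an unadjusted p under 0.05 and 2 called by DESeq2, all positive. Among them were the xylem peptidase XCP2 (0.62) and the secondary wall cellulose synthase IRX3 (0.67). VND6 (0.24) and VND7 (-0.12) of the same list had an unadjusted p of 0.547 and 0.672 by edgeR's test.

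Lignin and phenylpropanoid genes, which make monolignols from phenylalanine, had differences above 0 in all 15 members, with a median of 0.83. None of the 15 passed by edgeR, all 15 had an unadjusted p under 0.05, and DESeq2 called 12. As positive, 15.3% of all features had such a p and DESeq2 called 8.01%. In Ler 7 rose and none fell (6.18% and 2.68% of all features), and in Col none rose and 3 fell (10.4% and 11.6%). C4H, the cinnamate hydroxylase of the pathway, had 948, 1369 and 1262 CPM in Ler at 2 h and 695, 788 and 664 CPM in Ler at 0 h, against 799, 1096 and 909 CPM in Col at 2 h and 942, 1007 and 1015 CPM in Col at 0 h. Ler at 2 h exceeded Ler at 0 h in every library and the Col groups overlapped. C4H rose in Ler (0.73, adjusted p = 0.00451) with -0.10 in Col, and differed by 0.83 (adjusted p = 0.0573). PAL2, a phenylalanine ammonia-lyase, rose by 0.99 in Ler (adjusted p = 0.006), with 0.03 in Col and a difference of 0.96 (adjusted p = 0.0609). FAH1, the hydroxylase of syringyl lignin, and the ligase 4CL1 instead fell in Col, by log2 changes of -1.35 and -0.68 (adjusted p = 0.00546 and 0.00781), with 0.56 and 0.30 in Ler and differences of 1.91 and 0.99 (adjusted p = 0.053 and 0.0573). 4CL1 overlaps another annotated gene. With replicate 2 of Col at 0 h left out, 11 lignin genes and 3 endodermis markers passed, all positive, next to 8.78% of all features.

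Laccases and class III peroxidases, the secreted oxidases that polymerise monolignols, had medians of 0.79 over 16 and 0.47 over 59 members. All 16 laccases were above 0, 9 had an unadjusted p under 0.05 and 1 passed. That was AT5G01050, with 24.5, 21.2 and 25.7 CPM in Ler at 2 h and 10.2, 9.85 and 8.09 CPM in Ler at 0 h, against 26.8, 23.6 and 21.4 CPM in Col at 2 h and 25.8, 17.5 and 23.1 CPM in Col at 0 h. Ler lay below Col at 0 h and overlapped it at 2 h. It rose in Ler (1.35, adjusted p = 0.00019) with 0.11 in Col, a difference of 1.24 ± 0.22 (adjusted p = 0.0465). The peroxidases past the threshold were AT1G34510 (1.48, adjusted p = 0.0465) and AT3G49960 (1.16, adjusted p = 0.0465), and both rose in Ler, by 1.20 and 0.87. Of the 59 peroxidases, 22 were positive and 4 negative at an unadjusted p under 0.05, next to 15.3% and 14.6% of all features. Without replicate 2 of Col at 0 h, 18 positive and 3 negative peroxidases and 3 laccases passed. Of all features, 8.78% passed as positive and 9.57% as negative in that setting.

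Transporters for sulfate and nitrate had positive differences as well. SULTR1;2 (chr1:29327515-29333220, forward strand), the main carrier for sulfate uptake into Arabidopsis roots, had 845, 759 and 833 CPM in Ler at 2 h and 145, 136 and 146 CPM in Ler at 0 h, against 653, 508 and 719.6 CPM in Col at 2 h and 313, 150.3 and 373 CPM in Col at 0 h. Levels at 2 h were above those at 0 h in both ecotypes without overlap. SULTR1;2 rose in Ler (2.51 ± 0.18, adjusted p = 7.83e-06) and in Col (1.21 ± 0.18, adjusted p = 0.000739), and more in Ler by 1.299 ± 0.25 (adjusted p = 0.0465). At 0 h it was lower in Ler (-0.90, adjusted p = 0.00153) and at 2 h its ecotype difference was 0.39 (adjusted p = 0.111). All 10 sulfate transporters tested had a difference above 0, with a median of 0.84, 8 at an unadjusted p under 0.05 and 1 past the threshold. Of all features, 51.8% had a difference above 0 and 15.3% were positive at that p. AST91 (also SULTR3;3), a further family member, rose in Ler (1.67, adjusted p = 0.000488) and had a difference of 1.38 (adjusted p = 0.0573).

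NRT1.1 (chr1:4105223-4109601, forward strand), the transporter and sensor of nitrate, had 713, 394 and 587 CPM in Ler at 2 h and 338, 225 and 257 CPM in Ler at 0 h, against 745, 492 and 642 CPM in Col at 2 h and 911, 353 and 775 CPM in Col at 0 h. In Ler the 2 h libraries were above the 0 h libraries, whereas the Col groups overlapped. It rose in Ler (1.02 ± 0.15, adjusted p = 0.000911) with -0.05 in Col (adjusted p = 0.858), a difference of 1.06 ± 0.21 (adjusted p = 0.0482). AT3G21670, a member of the same NPF family, differed by 1.44 (adjusted p = 0.0465), with a rise in Ler (0.64) and a fall in Col (-0.80). Of the 28 NPF and NRT transporters tested, 2 passed, and the median was 0.61. At an unadjusted p under 0.05, 13 were positive and none negative, next to 15.3% and 14.6% of all features. WR3 (also NAR2.1), the partner protein of the high-affinity nitrate transporters, rose in both ecotypes, by 2.60 in Ler and 1.26 in Col, with a difference of 1.34 (adjusted p = 0.0573). The nitrate reductase NIA2 and the nitrate-responsive factor TGA4 rose in Ler (0.51 and 0.63) and differed by 0.68 and 0.92 (adjusted p = 0.0581 and 0.0528). Over the 19 genes of the nitrate list, 10 rose and none fell in Ler, 3 rose and 3 fell in Col, and the median difference was 0.50. Of all features, 6.18% rose and 2.68% fell in Ler, and 10.4% rose and 11.6% fell in Col. When replicate 2 of Col at 0 h was left out, 5 sulfate transporters and 10 NPF and NRT transporters passed, all positive, next to 8.78% of all features.

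Genes known to respond to phosphate starvation had a smaller median than these transporters. None of the 36 tested systemic genes passed by edgeR, 19 were positive and 1 negative at an unadjusted p under 0.05, DESeq2 called 9 positive and 1 negative, and the median was 0.41. Of all features, 15.3% were positive and 14.6% negative at that p, and DESeq2 called 8.01% and 6.22%. RNS1, a secreted ribonuclease that frees phosphate from RNA, had 181, 304 and 293 CPM in Ler at 2 h and 1.79, 2.42 and 2.59 CPM in Ler at 0 h, against 83.5, 171 and 164 CPM in Col at 2 h and 7.44, 3.56 and 5.04 CPM in Col at 0 h. Every 2 h library lay above every 0 h library of its ecotype, and Ler lay below Col at 0 h and above it at 2 h. RNS1 rose in Ler (6.83 ± 0.37, adjusted p = 4.25e-07) and in Col (4.67 ± 0.34, adjusted p = 1.11e-05), with a difference of 2.16 ± 0.46 that missed the threshold (adjusted p = 0.0546, and 0.000256 by DESeq2). The acid phosphatase PAP10 rose in Ler (0.89, adjusted p = 0.00171) with 0.02 in Col and differed by 0.87 (adjusted p = 0.0573). The malate channel ALMT1 of the local pathway fell in Col (-0.73, adjusted p = 0.00299), had 0.00 in Ler and differed by 0.73 (adjusted p = 0.0581). It had 78.2, 56.2 and 77.4 CPM in Ler at 2 h and 109.9, 41.9 and 75.9 CPM in Ler at 0 h, against 179, 87.8 and 141 CPM in Col at 2 h and 300.2, 146 and 229.8 CPM in Col at 0 h, and Ler lay below Col at 0 h in every library. None of the 7 local genes passed by edgeR, 3 were positive at an unadjusted p under 0.05 and DESeq2 called 1. Without replicate 2 of Col at 0 h, 5 of the 36 systemic genes passed as positive and 2 as negative, next to 8.78% and 9.57% of all features in that setting, and nothing is read from these counts.

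NPC4, a phospholipase that releases phosphate from membrane lipids, had the smallest p of the phosphate genes that carry the PHR1 site GNATATNC in the 250 bases before the start. Its difference was 1.84 (adjusted p = 0.0803), with 1.01 in Ler and -0.82 in Col. The window is chr3:845097-845346 on the reverse strand, with the match in capitals at bases 219 to 212 before the start.
NPC4: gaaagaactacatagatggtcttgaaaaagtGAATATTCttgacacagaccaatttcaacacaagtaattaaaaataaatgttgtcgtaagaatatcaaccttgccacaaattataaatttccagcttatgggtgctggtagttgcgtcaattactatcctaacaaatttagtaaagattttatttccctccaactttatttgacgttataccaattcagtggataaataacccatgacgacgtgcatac
The site reads the same on both strands, so that 1 site counts there as 2 matches. It was in 8 of the 36 tested genes of the list (22.2%), against 5.49% of all promoters.

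Regulators and detoxification enzymes had positive medians nearer to the spread of all features. Of all features, 15.3% were positive and 14.6% negative at an unadjusted p under 0.05, and DESeq2 called 8.01% and 6.22%. Nothing is read from counts near these shares. Of 78 MYB factors none passed by edgeR, 20 were positive and 4 negative at an unadjusted p under 0.05, DESeq2 called 6 and 1, and the median was 0.49. MYB122 rose in Ler (1.28, adjusted p = 0.00207) and differed by 1.15 (adjusted p = 0.0581). Among 61 WRKY factors 18 were positive and none negative at an unadjusted p under 0.05, DESeq2 called 9, edgeR none, and the median was 0.32. The 77 NAC factors had a median of 0.35, with 21 positive and 3 negative at an unadjusted p under 0.05, 9 and 1 called by DESeq2 and none by edgeR. NAC047 rose in Ler (2.49, adjusted p = 0.000594) with 0.73 in Col and differed by 1.75 (adjusted p = 0.0581). Of 51 ERF and DREB factors 1 passed, ERF-1, which fell in Col (-0.88, adjusted p = 0.000892) with 0.09 in Ler and a difference of 0.97 (adjusted p = 0.0465). It had 32.5, 10.4 and 20.4 CPM in Ler at 2 h and 34.8, 10.9 and 15.6 CPM in Ler at 0 h, against 28.03, 9.01 and 12.4 CPM in Col at 2 h and 47.4, 15.6 and 26.3 CPM in Col at 0 h. All groups overlapped, and Col at 2 h was below Col at 0 h at each of the 3 replicate numbers.

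Of 158 cytochrome P450 genes 2 passed, and the median was 0.49. At an unadjusted p under 0.05, 47 were positive and 8 negative, next to 15.3% and 14.6% of all features. CYP707A1, which breaks down abscisic acid, rose in Ler (0.90, adjusted p = 0.000924) with -0.13 in Col and differed by 1.03 ± 0.19 (adjusted p = 0.0465). CYP71B29 differed by 1.11 (adjusted p = 0.0465) and fell in Col (-0.75). Of 112 UDP-glycosyltransferases 1 passed, UGT73D1, which had 19.5, 15.1 and 19.0 CPM in Ler at 2 h and 4.47, 4.08 and 4.08 CPM in Ler at 0 h, against 14.1, 10.7 and 10.7 CPM in Col at 2 h and 12.2, 5.51 and 11.95 CPM in Col at 0 h. It rose in Ler (2.08, adjusted p = 0.000138) and differed by 1.80 ± 0.32 (adjusted p = 0.0465), and the family median was 0.26. Of 99 ABC transporters 1 passed, ABCG10, with a rise of 1.25 in Ler, a fall of log2 -0.96 in Col and a difference of 2.21 ± 0.40 (adjusted p = 0.0465), and the family median was 0.19.

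Among the positive features of no list, OCT6 (chr1:5596633-5598447, forward strand), an organic cation/carnitine transporter, had 17.6, 62.1 and 46.4 CPM in Ler at 2 h and 4.58, 5.01 and 5.61 CPM in Ler at 0 h, against 21.3, 40.4 and 40.3 CPM in Col at 2 h and 39.0, 25.2 and 49.4 CPM in Col at 0 h. All 3 libraries of Ler at 0 h were lower than any other library. OCT6 rose in Ler (2.95 ± 0.34, adjusted p = 0.000167) with -0.25 in Col (adjusted p = 0.594), a difference of 3.20 ± 0.45 (adjusted p = 0.0374). It overlaps another annotated gene. AT2G32150 (chr2:13658888-13660948, forward strand), annotated as a haloacid dehalogenase-like hydrolase, had 304, 315 and 246 CPM in Ler at 2 h and 362, 148 and 173 CPM in Ler at 0 h, against 40.7, 21.5 and 28.004 CPM in Col at 2 h and 131, 86.0 and 91.3 CPM in Col at 0 h. Ler lay above Col at both times without overlap. AT2G32150 fell in Col (-1.78 ± 0.23, adjusted p = 0.000357) with 0.43 in Ler (adjusted p = 0.261), a difference of 2.21 ± 0.32 (adjusted p = 0.0374). At 1 h, which shares the 0 h libraries with 2 h, the difference was 3.00 for OCT6 and 2.01 for AT2G32150. These 2 genes do not stand for the lists. Median differences at 1 h and 2 h were 0.43 and 1.00 for root hair markers, 0.09 and 0.85 for endodermis markers and -0.23 and -0.67 for ribosomal proteins. For genes of sugar starvation they were 0.91 and 0.51.

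**Figure D4:**
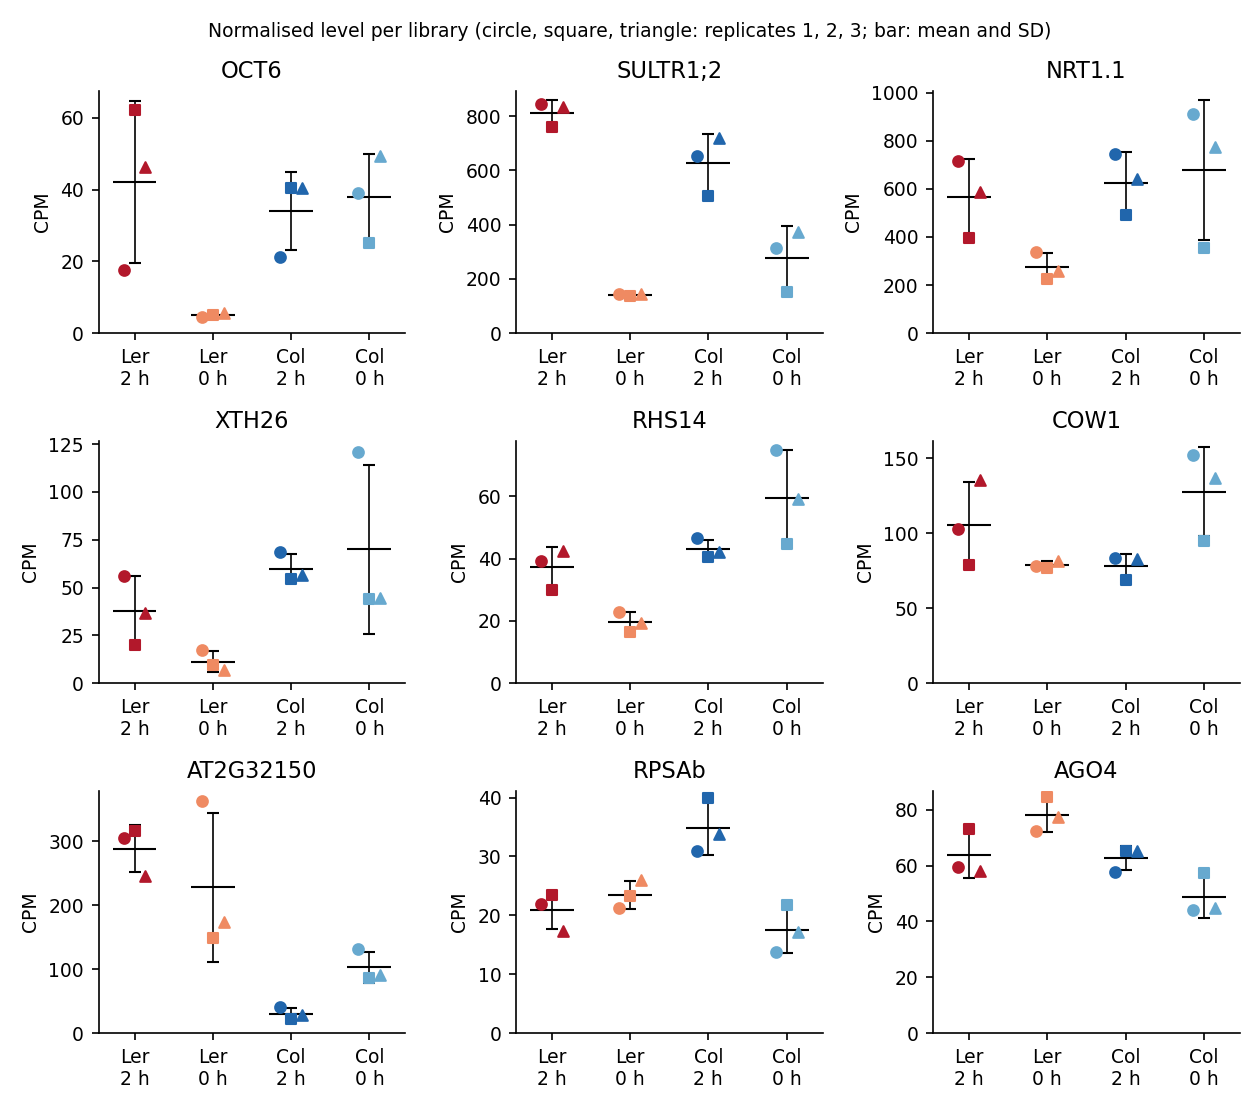
CPM of 9 genes past the threshold of the difference in each library of Ler at 2 h, Ler at 0 h, Col at 2 h and Col at 0 h (from left), with replicates 1, 2 and 3 as circle, square and triangle and bars for mean and SD (n = 3). OCT6, XTH26 and RHS14 are lowest in Ler at 0 h, AT2G32150 is lowest in Col at 2 h, and RPSAb is highest in Col at 2 h.

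AT1G70880, annotated as a polyketide cyclase and lipid transport protein, was a second gene with a high level in Ler at both times, with 30.1, 16.4 and 36.0 CPM in Ler at 2 h and 38.7, 14.5 and 20.3 CPM in Ler at 0 h, against 1.01, 0.332 and 0.691 CPM in Col at 2 h and 3.37, 1.26 and 2.74 CPM in Col at 0 h. It fell in Col (-1.85, adjusted p = 0.000623) with 0.22 in Ler, and differed by 2.07 ± 0.32 (adjusted p = 0.0465). GSO2, a leucine-rich repeat receptor kinase needed with GSO1 for the cuticle of the Arabidopsis embryo, had 24.4, 30.8 and 35.5 CPM in Ler at 2 h and 11.5, 7.12 and 9.73 CPM in Ler at 0 h, against 6.20, 5.77 and 7.91 CPM in Col at 2 h and 8.18, 4.52 and 8.08 CPM in Col at 0 h. It rose in Ler without overlap (1.73, adjusted p = 0.000644) with -0.03 in Col, a difference of 1.76 ± 0.35 (adjusted p = 0.0466). ST4B, a sulfotransferase, rose in Ler (0.77) and fell in Col (-0.85), a difference of 1.62 (adjusted p = 0.0465). AT5G37990, a methyltransferase at 0.505, 0.104 and 0.255 CPM in Ler at 0 h, had the highest fitted difference of the 79 features past the threshold, 4.99 ± 0.96 (adjusted p = 0.0465), from few reads. It had 2.12, 2.12 and 4.25 CPM in Ler at 2 h, 11.2, 5.19 and 4.07 CPM in Col at 2 h and 20.6, 6.12 and 42.3 CPM in Col at 0 h. The remaining named positive features were AT2G39518 (1.69, which rose in both ecotypes), AT4G17215 (1.503, which fell in Col) and AT1G61080 (1.48, which rose in Ler). AT2G39518 and AT4G17215 overlap other annotated genes.

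All 8 negative features rose in Col, and in 8 of 8 the 3 libraries of Col at 2 h lay above those at 0 h (27.2% of all features had Col groups apart). The same Col libraries entered the test that selected the 8, which favours such a separation. Of the 8, 1 fell in Ler past the threshold, ATLP-1, a thaumatin-like protein, with 18.9, 19.9 and 12.8 CPM in Ler at 2 h and 24.7, 25.05 and 24.0 CPM in Ler at 0 h, against 19.3, 25.1 and 21.2 CPM in Col at 2 h and 10.98, 17.7 and 14.04 CPM in Col at 0 h. Its changes were -0.52 in Ler (adjusted p = 0.0422) and 0.63 in Col (adjusted p = 0.0108), a difference of -1.15 ± 0.21 (adjusted p = 0.0465). AGO4 (chr2:11536502-11542391, reverse strand), the Argonaute protein of RNA-directed DNA methylation, had 59.7, 73.2 and 58.2 CPM in Ler at 2 h and 72.3, 84.7 and 77.5 CPM in Ler at 0 h, against 57.9, 65.1 and 65.1 CPM in Col at 2 h and 44.1, 57.4 and 44.7 CPM in Col at 0 h. Ler lay above Col at 0 h in every library, and the ecotypes overlapped at 2 h. AGO4 rose in Col (0.37 ± 0.09, adjusted p = 0.0143) with -0.30 in Ler (adjusted p = 0.0622), a difference of -0.67 ± 0.13 (adjusted p = 0.0466). It was the only one of 5 tested Argonaute genes past the threshold, and AGO6 of the same pathway had a difference of -0.43 (adjusted p = 0.287).

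AT1G70080, annotated as a terpenoid cyclase, had 52.8, 72.7 and 46.3 CPM in Ler at 2 h and 47.7, 82.5 and 92.2 CPM in Ler at 0 h, against 2.92, 2.45 and 2.57 CPM in Col at 2 h and 0.6999, 1.09 and 1.000 CPM in Col at 0 h. Ler was far above Col at both times, and the difference of -1.88 ± 0.35 (adjusted p = 0.0465) went with a rise in Col (1.54, adjusted p = 0.0035) next to -0.33 in Ler. AGP1, an arabinogalactan protein of the cell surface, differed by -0.81 (adjusted p = 0.0465), and its family of 42 had a median of 0.13 with 6 positive and 7 negative members at an unadjusted p under 0.05. Those counts stand next to 15.3% and 14.6% of all features, and nothing is read from them. LYM3, a LysM receptor-like protein that binds peptidoglycan, differed by -1.07, the RNA polymerase subunit-like AT1G06790 by -0.89 and AT3G62455, from the list of transposable element genes and pseudogenes, by -1.095 (adjusted p = 0.0465 each). AT1G06790 overlaps another annotated gene.

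Ribosomal protein genes, whose products form both ribosomal subunits and whose levels rise in growing and dividing cells, mostly had a lower response in Ler than in Col. Of 290 tested, 271 had a difference below 0 and 240 had an unadjusted p under 0.05 in that direction (14.6% of all features), against 6 in the positive direction. The median was -0.67, from -0.24 in Ler and 0.42 in Col. In Ler none rose and 15 fell (6.18% and 2.68% of all features), and in Col 118 rose and 9 fell (10.4% and 11.6%). The threshold of the difference was passed by 1 member in edgeR and by 186 in DESeq2, 185 of them negative. DESeq2 called 6.22% of all features as negative. Together the 290 took 57994, 62550.4 and 43249 CPM in Ler at 2 h and 62985, 65425 and 65193 CPM in Ler at 0 h, against 64637, 81040.2 and 65552 CPM in Col at 2 h and 42655, 72005 and 44831 CPM in Col at 0 h.

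Replicate 2 of Col at 0 h had a higher sum than every Ler library, whereas replicates 1 and 3 of that group were below every Ler library at 0 h. The median difference was -0.69, -0.23 and -1.12 at replicate numbers 1, 2 and 3. Without that library the median was -0.84 and 217 passed as negative, as did 9.57% of all features. The median was -0.84 to -0.53 whichever library was left out. The member past the threshold was RPSAb (chr3:1309273-1311129, reverse strand), a protein SA of the small subunit, with 21.9, 23.5 and 17.3 CPM in Ler at 2 h and 21.3, 23.4 and 25.98 CPM in Ler at 0 h, against 30.9, 39.9 and 33.8 CPM in Col at 2 h and 13.7, 21.8 and 17.3 CPM in Col at 0 h. In Col the 2 h libraries lay above the 0 h libraries, and those of Ler overlapped. RPSAb rose in Col (0.99 ± 0.17, adjusted p = 0.00161) with -0.17 in Ler (adjusted p = 0.59), a difference of -1.16 ± 0.23 (adjusted p = 0.0482). It overlaps a gene on the same strand, so reads could be shared. RPS10, of the mitochondrial ribosome, differed by -0.74 (adjusted p = 0.0573), and AT4G00810, an acidic protein of the large subunit, by -0.70 (adjusted p = 0.0581).

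Promoters of ribosomal protein genes in Arabidopsis are known for the telo box, AAACCCTA, and for TGGGC and GGGCC motifs. AT4G00810 is shown because its difference had the smallest p among members with a telo box. The window is chr4:347294-347543 on the reverse strand, with the box in capitals at bases 40 to 33 before the start.
AT4G00810: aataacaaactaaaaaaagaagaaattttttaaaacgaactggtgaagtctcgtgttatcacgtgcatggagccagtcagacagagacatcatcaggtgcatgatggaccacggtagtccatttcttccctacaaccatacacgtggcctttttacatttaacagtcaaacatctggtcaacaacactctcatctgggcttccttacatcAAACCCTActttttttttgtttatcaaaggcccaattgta
The telo box was in 44 of 290 promoters (15.2%), against 3.61% of all. TGGGC was in 60.3% against 25.5% of all promoters and GGGCC in 49.7% against 18.7%, both strands searched, and the last pair overlap where GGGCC is preceded by T.

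Other genes of growth also had medians below 0. Of 258 pentatricopeptide repeat genes, which process organellar RNA, 226 were below 0, 72 of them at an unadjusted p under 0.05 against 3 positive, and the median was -0.47. At that p, 14.6% of all features were negative and 15.3% positive. The 1 member past the threshold, AT3G29240, went the other way (1.098, adjusted p = 0.0482). All 16 mitotic genes were below 0 with a median of -0.43. None passed by edgeR, 6 had an unadjusted p under 0.05 and DESeq2 called 4, next to 14.6% and 6.22% of all features as negative. In Ler 7 fell (2.68% of all features), and in Col none changed past the threshold (10.4% rose and 11.6% fell). With replicate 2 of Col at 0 h left out, 4 of the 16 mitotic and 28 of the 258 pentatricopeptide repeat genes passed as negative, the last a share near the 9.57% of all features in that setting. The cytokinesis syntaxin SYP111 fell in Ler (-0.52, adjusted p = 0.0088) and differed by -0.58 (adjusted p = 0.0581), and the cyclin CYCB1;1 differed by -0.78 (adjusted p = 0.0653). PLT1 and PLT2, factors that maintain the root stem cell niche, rose in Col (1.07 and 0.96) with -0.01 and -0.01 in Ler. Their differences of -1.08 and -0.97 missed the threshold (adjusted p = 0.0713 and 0.0631). WOX5, also on the root meristem list, differed by only 0.06. It averaged 7.10 CPM at 2 h and 1.27 CPM at 0 h in Ler, and 4.07 and 0.725 CPM in Col. SHR and SCR of that list differed by -0.14 and -0.07, and the median of its 8 members was -0.43. SMB, a factor of the maturing root cap, differed by -1.02 (adjusted p = 0.062), and all 4 root cap markers were below 0 with a median of -0.87.

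**Figure D5:**
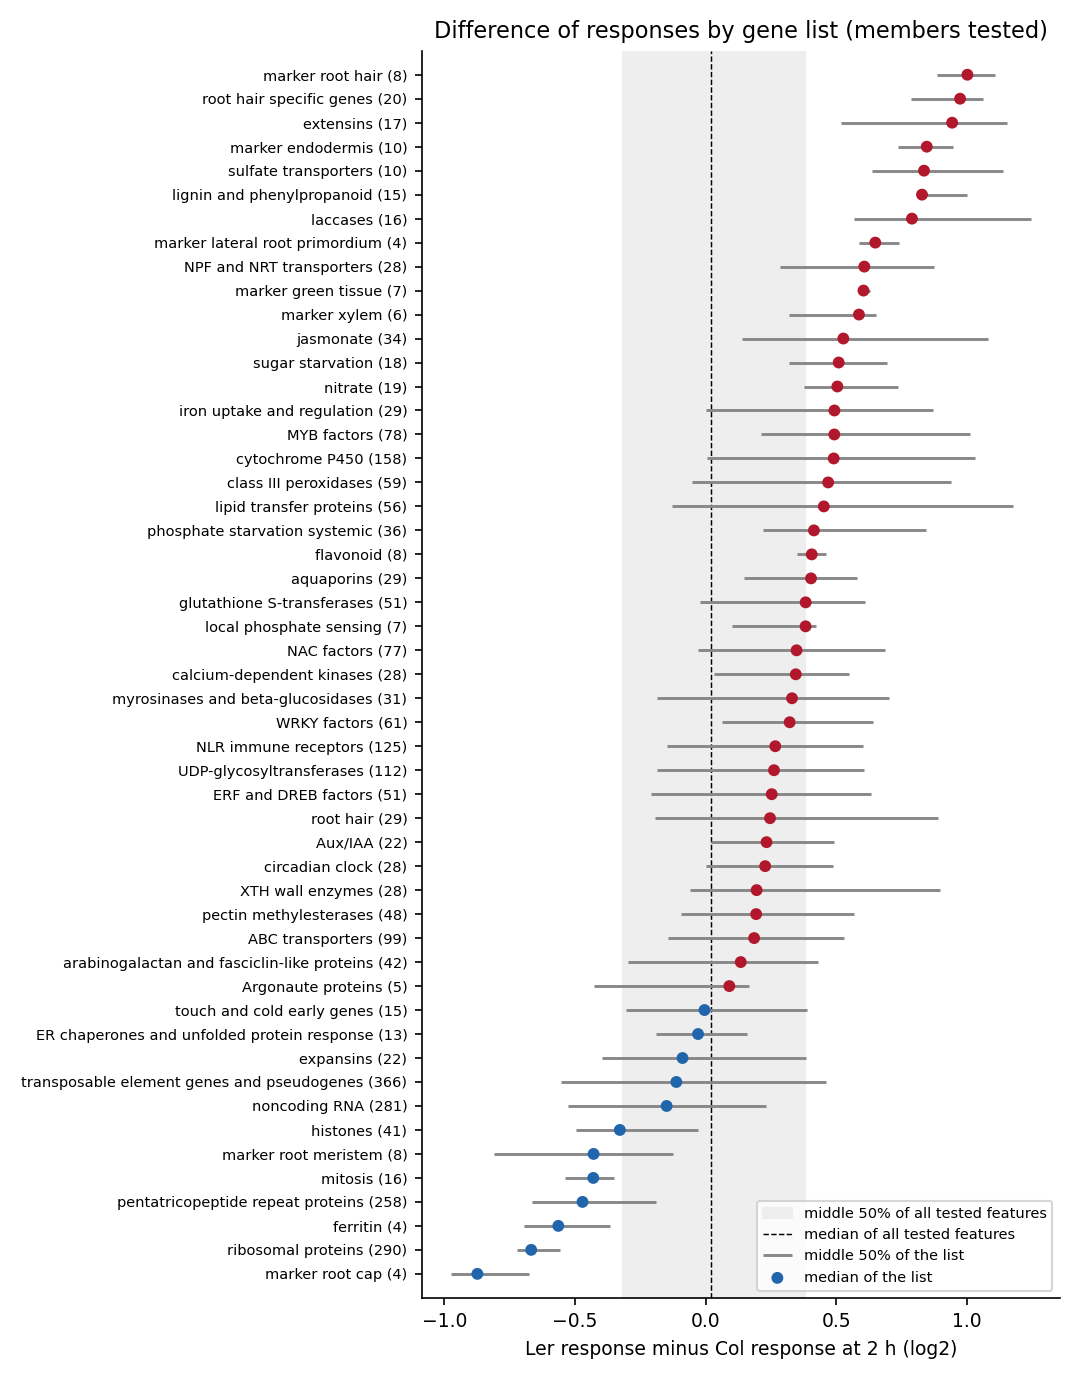
Median (points, red above 0 and blue below 0) and middle 50% (lines) of the log2 difference between the Ler and Col responses at 2 h for each gene list with at least 4 tested members, whose number is in brackets, with the middle 50% of all tested features shaded. The medians of the root hair specific, root hair marker, extensin, sulfate transporter and lignin lists lie above the shaded range, that of the wider root hair list lies inside it, and those of the ribosomal protein and root cap lists lie below it.

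Several lists had medians inside the middle 50% of all features, which ran from -0.32 to 0.38. Touch and cold genes had a median of 0.00 over 15, chaperones of the endoplasmic reticulum -0.03 over 13, the circadian clock 0.23 over 28 and noncoding RNA genes -0.15 over 281. None of their members passed by edgeR. At an unadjusted p under 0.05 they had 1, 2, 5 and 15 positive and 0, 0, 1 and 28 negative members, and DESeq2 called 0, 1, 3 and 2 positive and 0, 0, 0 and 5 negative. Of all features, 15.3% were positive and 14.6% negative at that p, and DESeq2 called 8.01% and 6.22%. The 34 tested jasmonate genes had a wide spread around a median of 0.53, with 9 rising in Ler and 2 in Col (6.18% and 10.4% of all features). None was past the threshold of the difference by edgeR, 4 were positive and 1 negative at an unadjusted p under 0.05, and DESeq2 called 1. The 4 ferritins, iron storage proteins, were all below 0 with a median of -0.56, and FER3 fell in Ler (-0.51, adjusted p = 0.047) with a difference of -0.69 (adjusted p = 0.0667). The 29 iron uptake genes had a median of 0.49 with 9 positive and no negative members at an unadjusted p under 0.05. Neither iron list had a member past the threshold by edgeR, and DESeq2 called 2 ferritins as negative and 5 uptake genes as positive.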

How the data were processed

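Poly(A)-selected, paired-end, strand-specific RNA-seq libraries were made from root apices, per the labels. Each library has 1 table of whole-number counts, not normalized, as the authors deposited it. Reads were processed with TopHat2, Bowtie2 and TAIR10, per the submitters' processing notes, while the counting tool, its strand setting and its treatment of shared reads are not given in the sources used here. Reads from a gene and an overlapping antisense gene may therefore not be told apart (15 of the 79 called features overlap another annotated gene). The tables of Ler list 32852 features, all also listed for Col, and the 750 others were left out. RefSeq's TAIR10.1 annotation matched 32383 of the 32852 and gave symbols, coordinates and promoters.

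Counts of all 18 libraries were fitted together in edgeR 4.0.16 (limma 3.58.1, R 4.3.3) with TMM scaling, filterByExpr (at least 10 counts in enough libraries and 15 in total), 1 mean per group and the replicate number as a block (10 residual degrees of freedom). The contrast was tested with glmQLFTest and Benjamini-Hochberg adjustment at 0.05, and CPM use TMM-scaled library sizes. The standard error (SE) is the absolute log2 change divided by the square root of F. On data simulated with known differences for this contrast, the test recovered 96 of 100 features with a log2 difference of 2 and 61 of 100 with 1, among 20458 features. Simulated counts varied independently around the fitted means, with no other feature differing. This recovery therefore does not cover the dependence on single libraries seen in the real data.

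The lists and named genes were chosen with earlier results of these data known. Named were all negative calls averaging at least 1 CPM (up to 10), the 12 highest positive calls averaging at least 5 CPM, every list member past the threshold, up to 2 members per list with the smallest p, and RNS1. Others named in a list (RHS18, RSL4, PRP1, PRP3, RHD2, C4H, PAL2, WR3, NIA2, NPC4, VND6, VND7 and AT4G00810) were chosen after their values were seen. The definitions of 10 families (ribosomal proteins, class III peroxidases, histones, root hair specific genes, extensins, sulfate transporters, laccases, Argonaute proteins, aquaporins and Aux/IAA) were widened or corrected after values were seen. Alternatives were no block, a block within each ecotype, only the 12 libraries, RLE size factors, DESeq2 1.42.0, no filter, at least 1 CPM, a 2-fold minimum and each library left out.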

Additional observations from a re-analysis of the deposited data

Results flagged for a closer look

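The response at 2 h differed between the ecotypes, by edgeR's quasi-likelihood test of the difference itself with an adjusted p under 0.05, for 39 of the genes named above. Of these, 31 had a higher response in Ler than in Col. The log2 difference was 4.99 for AT5G37990, 3.20 for OCT6, 2.21 for ABCG10, 2.21 for AT2G32150, 2.07 for AT1G70880, 1.80 for UGT73D1, 1.77 for XTH26 and 1.76 for GSO2. It was 1.69 for AT2G39518, 1.62 for ST4B, 1.503 for AT4G17215, 1.48 for AT1G61080, 1.48 for AT1G34510, 1.44 for AT3G21670, 1.39 for G3Pp2 and 1.38 for RHS14. Values nearer to the middle were 1.299 for SULTR1;2, 1.298 for EXT6, 1.24 for AT5G01050, 1.24 for EXT12, 1.23 for EXT10, 1.19 for XTH14, 1.16 for AT3G49960 and 1.15 for AT5G04960. The smallest were 1.11 for CYP71B29, 1.098 for AT3G29240, 1.08 for COW1, 1.06 for NRT1.1, 1.03 for CYP707A1, 0.99 for RHS16 and 0.97 for ERF-1. The 8 genes with a lower response in Ler than in Col had log2 differences of -1.88 for AT1G70080, -1.16 for RPSAb, -1.15 for ATLP-1, -1.095 for AT3G62455, -1.07 for LYM3, -0.89 for AT1G06790, -0.81 for AGP1 and -0.67 for AGO4. Each of the 39 kept its sign at all 3 replicate numbers, which their selection on the same libraries favours. All 39 rest on groups of 3 libraries and on the replicate block, as described for the calls as a whole.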

How the results depend on the processing

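The number of features past the threshold of the ecotype difference was 79, against 0 without a replicate block, 3 with only the 12 libraries, 1679 with a block within each ecotype and 2931 with DESeq2. Leaving out 1 library gave 0 to 3819. It was 0 without replicate 1 or 3 of Col at 0 h, any replicate of Col at 2 h, replicate 3 of Ler at 0 h or 2 h, or replicate 1 of Ler at 1 h, and 3819 without replicate 2 of Col at 0 h. The 79 stayed called in the 7 of these settings with a higher count. RLE size factors gave 87, a mean of at least 1 CPM 84 and no filter 98. Without the block, 577 features passed for the Ler response, 1316 for the Col response, 3643 for the ecotypes at 0 h and 3250 at 2 h. With 1 library left out, these counts were 905 to 2131, 2039 to 5114, 3977 to 6753 and 3727 to 5944. Same-numbered libraries deviated together between the ecotypes (mean r of 0.331, lowest 0.0701, over 12 pairs), and 12 of 12 libraries correlated best with their own number, but nothing in the labels says that a number marks a shared batch. The block is therefore a choice, and it decides whether any feature is called. For the named genes, 1981 values under the alternatives kept direction and side of the threshold, 502 lost the call and 364 gained one. For the 52 list medians this comparison covered RLE size factors, no block and a block within each ecotype, and of these values 154 moved by less than the spread and 2 by more. Medians with 1 library left out, given above for root hair specific and ribosomal protein genes, are not among these values. The cause of these changes was not tested.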

Other observations

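Of the features tested, 56 averaged over 200 counts in Col and had fewer than 20 in total over the 9 Ler libraries, and 20 had the reverse. None of them passed the threshold of the response difference by edgeR.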
